A study of Homo sapiens with 18 samples.

Results

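TM4SF1, EMP1, CNN3, TFPI2, CXCL17 and CLGN are 6 genes of the 23501 in the expression table that had low expression in both libraries of MLL3 knockdown (KD) cells against both libraries of control cells. They were picked on exactly that pattern, so the expression values below describe the 6 genes and were not tested, while histone marks and factor binding around them played no part in the choice. The cells were ZR75-1, an established human breast cancer line that expresses estrogen receptor α (ERα). ZR751shMLL3 cells carried a stable lentiviral short hairpin against MLL3 (gene symbol KMT2C), and ZR751shLucif cells carried a hairpin against luciferase. Both lines were sorted for the GFP of the vector and used at early passages, each is 1 transduced population, and the labels give no treatment other than the hairpin. RNA-seq and ChIP-seq for H3K4me1, ERα and SP1 were available with 2 libraries per cell line and assay.

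MLL3 is a histone methyltransferase that deposits a single methyl group on lysine 4 of histone H3 (H3K4me1), the mark of enhancers. ERα is a ligand-activated transcription factor that drives luminal breast cancer, largely from distal enhancers, and SP1 is a zinc finger factor that binds GC boxes, often in promoters. The 6 genes do not form a pathway. TM4SF1 and EMP1 encode small membrane-spanning proteins, CNN3 an actin-binding calponin, TFPI2 and CXCL17 secreted proteins, and CLGN a chaperone of the endoplasmic reticulum.

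Expression is given as FPKM, fragments mapped to a gene scaled by the length of its transcript and the depth of the library. The targeted gene KMT2C was at 2.34 and 6.77 FPKM in ZR751shLucif replicates 1 and 2, and at 1.07 and 2.69 FPKM in ZR751shMLL3 replicates 1 and 2. The KD mean was 41.2% of the control mean, and the groups overlapped, since the higher KD library lay above the lower control library. ZR751shLucif replicate 1 stood apart from the other RNA libraries, with log2 correlations across genes of 0.900 to 0.907 against 0.947 to 0.969 among the other three. All 10 luminal breast markers examined passed the filter on low values, whereas 8 of 9 basal or mesenchymal markers and all 3 endothelial markers had a mean under 1 FPKM. Of 5 fibroblast markers, COL1A1 alone exceeded this, at 13.1 to 17.8 FPKM over the libraries, and of 4 immune markers CD68, at 7.66 to 13.9 FPKM, and LYZ, at 0.977 to 4.85 FPKM, did. The summed fibroblast level was 18.0 and 13.2 FPKM in the controls and 17.2 and 17.7 FPKM in the KD, and the immune level 14.6 and 9.81 FPKM against 14.9 and 9.40 FPKM. Of the basal or mesenchymal markers, FN1 alone had a mean above 1 FPKM, at 2.39 and 1.37 FPKM in the controls and 0.723 and 0.938 FPKM in the KD. The summed level of these markers, FN1 included, was 1.72 to 3.49 FPKM in the controls and 1.44 to 1.50 FPKM in the KD. Their part in the results below was not tested.

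The 2 membrane proteins differed in abundance but kept a similar share of their level. TM4SF1, a surface protein of the transmembrane L6 superfamily that is associated with cell migration, lies on the minus strand at chr3:149086809-149095436 (hg19). It was at 63.2 and 43.8 FPKM in ZR751shLucif replicates 1 and 2 and at 6.01 and 10.5 FPKM in ZR751shMLL3 replicates 1 and 2. Even the higher KD library was far under the lower control library, and TM4SF1 went from the 84.1th to the 36.5th percentile of mean level among the genes that passed the filter. EMP1, an epithelial membrane protein of the PMP22 family, lies on the plus strand at chr12:13349660-13372875. It was at 4.47 and 4.71 FPKM in the controls and 0.753 and 0.597 FPKM in the KD. Both control libraries were nearly equal, and both KD libraries were below 1 FPKM. The mean KD level was 15.4% of the control mean for TM4SF1 and 14.7% for EMP1. In these bulk libraries, fewer cells that express a gene and less RNA per cell cannot be told apart.

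CNN3, the acidic calponin, binds actin filaments and is expressed in many cell types outside smooth muscle. It lies on the minus strand at chr1:95362513-95392666. CNN3 was at 29.7 and 27.3 FPKM in the controls and at 6.82 and 7.14 FPKM in the KD, and 24.5% of the control mean was left, the largest share of the 6. It also had narrow spread within both cell lines, with means of 28.5 ± 1.66 and 6.98 ± 0.226 FPKM (SD, n = 2 each).

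The secreted proteins were the least abundant in the KD along with EMP1. TFPI2, a Kunitz-type inhibitor of serine proteases that is held in the extracellular matrix, lies on the minus strand at chr7:93514708-93520065. It was at 18.2 and 17.8 FPKM in the controls and 2.85 and 2.27 FPKM in the KD. CXCL17, a chemokine of mucosal epithelia, lies on the minus strand at chr19:42932430-42947098. It was at 8.64 and 4.72 FPKM in the controls and 0.623 and 0.375 FPKM in the KD. CXCL17 had the smallest share left, 7.47% of the control mean, and the widest spread between control libraries relative to its level. TFPI2 had 14.2% left.

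CLGN encodes calmegin, a lectin chaperone related to calnexin that is best known from male germ cells. It lies on the minus strand at chr4:141309607-141348802. CLGN was at 32.9 and 46.5 FPKM in the controls and 8.28 and 7.14 FPKM in the KD, with 19.4% of the control mean left. Both KD libraries lay far under both control libraries, and the spread was wider in the controls.

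**Figure D1:**
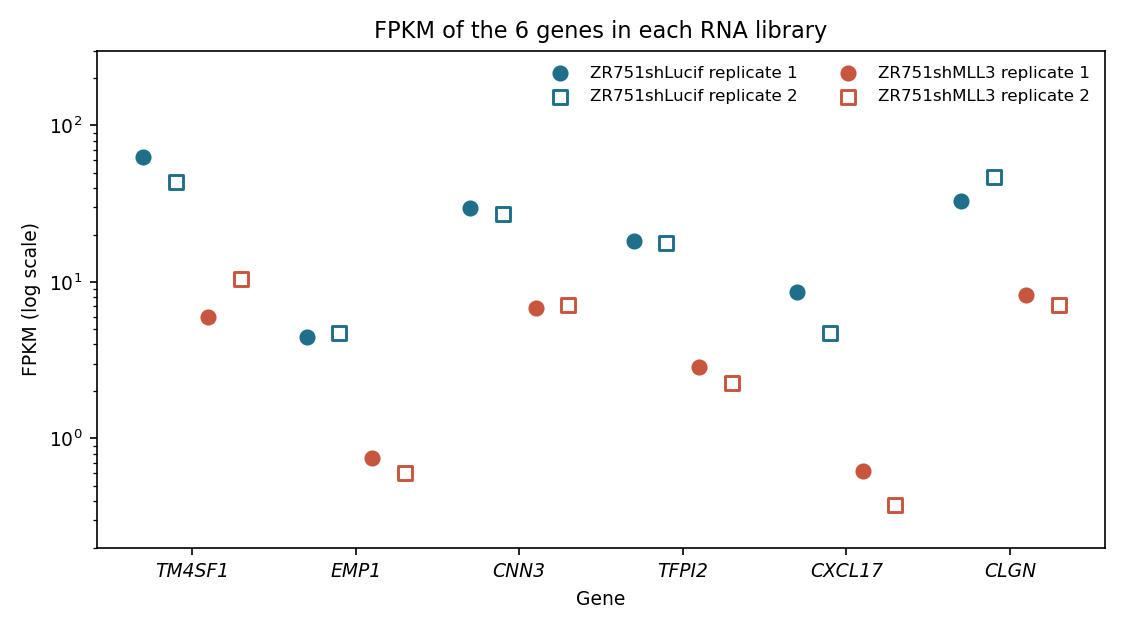
FPKM of each of the 6 genes (x axis) in each RNA library on a log scale (y axis), with blue for ZR751shLucif, red for ZR751shMLL3, filled circles for replicate 1 and open squares for replicate 2. For every gene both red points lie below both blue points, as the choice of genes required, with EMP1 at 0.753 and 0.597 FPKM and CXCL17 at 0.623 and 0.375 FPKM in the KD.

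On the log2(FPKM + 0.5) scale, the differences between the means of the cell lines (ZR751shMLL3 minus ZR751shLucif) were −2.65 for TM4SF1, −2.12 for EMP1, −1.96 for CNN3, −2.60 for TFPI2, −2.80 for CXCL17 and −2.27 for CLGN. Their median was −2.44, beside a median of −0.10 over all 11134 genes tested. The 6 genes all passed the filter, a mean above 1 on this scale, but EMP1 and CXCL17 did so through the control libraries. Being lower in both KD libraries than in both control libraries was by itself common, at 25.3% of all genes tested, whereas 26 genes, or 0.234%, had a difference at or below that of CNN3. These shares describe the choice and nothing is read from them. The gap between the nearest libraries of the groups ranged from 1.87 for CNN3 to 2.45 for TFPI2 on the log2 scale. Ranked by this gap, the members took places 5, 6 and 8 to 11. ERP27 was just outside, with a gap of 1.73, and SNORD104, MUCL1, MGP and BPIFB1 had gaps within or above the range of the members and were not among the 6. In a fit across all genes, limma with Benjamini-Hochberg adjustment called 1 gene lower in the KD (0.00898% of those tested), the small nucleolar RNA SNORD104, and 0 higher. At an unadjusted p under 0.05 there were 480 lower and 409 higher.

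The transcripts of the 6 genes were low in GC content, from 36.8% for CLGN to 45.6% for CXCL17, against a median of 48.9% over the genes tested. Across genes, the log2 difference rose with GC content (Spearman's rho of 0.538 across genes, which are not independent replicates). Genes within 1 percentage point of GC content of a member had median differences from −0.20 for CXCL17 to −0.40 for TFPI2. Between 33.1% of those near CXCL17 and 54.7% of those near TFPI2 were lower in both KD libraries than in both control libraries. With the GC trend removed from each library, the median difference of the 6 genes was −2.13. The part of GC content in the differences was not otherwise tested.

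**Figure D2:**
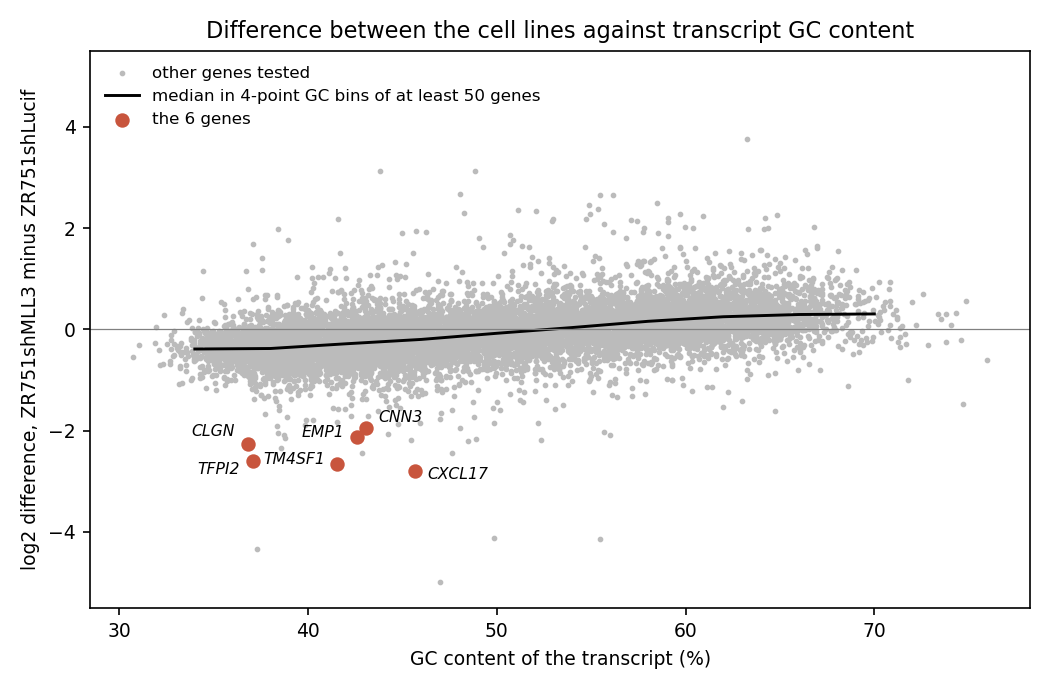
The log2 difference between ZR751shMLL3 and ZR751shLucif (y axis, means of log2(FPKM + 0.5)) against the GC content of each gene's transcript (x axis, %), with grey points for the other genes tested, a black line for the median in bins of GC content, and red points for the 6 genes. The median rises with GC content, and the 6 genes lie between −2.80 and −1.96, below the bulk of genes of the same GC content.

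Relatives of the 6 genes were taken from lists of families and partners, with the members themselves left out. Of 59 genes in 6 lists, 28 passed the filter and 0 were called by limma after adjustment over all genes. At an unadjusted p under 0.05 (limma), 1 was lower and 3 were higher, beside 4.31% and 3.67% of all genes tested. None of the 4 TM4SF family relatives in the table passed the filter, and their summed level was 0.0555 to 0.204 FPKM over the libraries. In the EMP and PMP22 family, EMP2 was at 143 and 121 FPKM in the controls and 101 and 142 FPKM in the KD, a difference of −0.14. PMP22, a myelin and epithelial membrane protein, was at 26.2 and 21.6 FPKM in the controls and 20.2 and 16.0 FPKM in the KD, a difference of −0.39 with an adjusted p of 0.680 (limma). The median of the list was −0.27, from 2 genes tested.

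Among 8 tested calponins, transgelins and actin-filament partners, the median difference was −0.07, which turned to 0.08 with quantile normalization, 0.02 with median-ratio scaling and 0.07 without ZR751shLucif replicate 1. The lowest was the tropomyosin TPM4, at 107 and 82.6 FPKM in the controls and 59.5 and 62.1 FPKM in the KD, a difference of −0.63 with an adjusted p of 0.620 (limma). The highest was the myosin light chain MYL9, at 1.36 and 1.27 FPKM in the controls and 3.03 and 2.31 FPKM in the KD, a difference of 0.80 with an adjusted p of 0.601 (limma). The 6 tested protease inhibitors had a median of 0.45, with 5 of 6 above 0. SLPI, a secreted inhibitor of leukocyte proteases, was at 136 and 61.0 FPKM in the controls and 26.8 and 22.9 FPKM in the KD, a difference of −1.86 with an adjusted p of 0.427 (limma). TIMP1, an inhibitor of matrix metalloproteases, was at 29.1 and 22.0 FPKM in the controls and 80.5 and 52.9 FPKM in the KD, a difference of 1.35 with an adjusted p of 0.475 (limma). The groups of SLPI and of TIMP1 did not overlap, in opposite directions.

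CXCL16, a membrane-anchored chemokine, was the one CXC chemokine relative of 15 to pass the filter, at 38.4 and 23.6 FPKM in the controls and 39.8 and 30.6 FPKM in the KD, with overlapping groups. Of the 11 tested lectin chaperones and folding enzymes of the endoplasmic reticulum, 8 had a negative difference and the median was −0.16. That median turned to 0.16 when ZR751shLucif replicate 1 was left out. The lowest, the oxidoreductase partner ERP44, was at 22.0 and 11.7 FPKM in the controls and 10.8 and 12.5 FPKM in the KD. The highest, calreticulin (CALR), was at 317 and 203 FPKM in the controls and 285 and 358 FPKM in the KD. Both pairs of groups overlapped.

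Of the genes that start within 100 kb of a member and had a mean of at least 1 FPKM, GNG11 near TFPI2 was at 2.24 and 0.215 FPKM in the controls and 0.944 and 0.767 FPKM in the KD. CNFN near CXCL17 was at 71.5 and 22.4 FPKM against 25.6 and 27.3 FPKM, and LIPE, which encodes hormone-sensitive lipase, at 1.81 and 1.80 FPKM against 2.24 and 1.93 FPKM. CEACAM1, a cell adhesion molecule that starts 85535 bp from the start of CXCL17, was at 5.31 and 1.34 FPKM in the controls and 0.533 and 0.352 FPKM in the KD. It was low in both KD libraries without overlap, although the control libraries themselves differed widely and its mean did not pass the filter. SCOC near CLGN was at 53.3 and 75.7 FPKM against 43.7 and 58.1 FPKM, with overlap. ELMOD2, also near CLGN, was at 19.8 and 16.5 FPKM in the controls and 8.64 and 11.6 FPKM in the KD, a difference of −0.82 with an adjusted p of 0.604 (limma).

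By the distance between centred log2 profiles over the 4 libraries, the genes outside the 6 that were most like their mean profile were ERP27, FAM241A, GCNT1, LCN2 and CSTA, with distances of 0.446 to 0.701. For comparison, the members lay at 0.275 for TFPI2 to 0.665 for TM4SF1 from their own mean. ERP27, a disulfide isomerase relative of the endoplasmic reticulum, was at 50.7 and 40.8 FPKM in the controls and 9.18 and 11.9 FPKM in the KD. LCN2, a secreted lipocalin that binds siderophores, was at 6.19 and 9.45 FPKM in the controls and 1.68 and 1.19 FPKM in the KD.

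The promoters of the 6 genes were of mixed composition. In the 250 bases before the start, GC content was 80.8% for CNN3, 70.8% for CLGN, 64.4% for TFPI2, 50.8% for TM4SF1, 47.2% for CXCL17 and 42.4% for EMP1, against a median of 62.8% over 20088 genes. The number of CpG dinucleotides ranged from 3 in EMP1 to 33 in CNN3, around a median of 18. Thus CNN3 and CLGN had CpG-rich promoters, TFPI2 was near the median with 20, and TM4SF1, CXCL17 and EMP1 had CpG-poor promoters. The promoters of EMP1, CNN3, TFPI2 and CXCL17 are printed as examples that span that range. They are taken from the GRCh37 reference, 5′ to 3′ in the direction of transcription. Capitals mark matches on either strand to GGGCGG (the GC box that SP1 binds), TGANTCA (the AP-1 motif), GGTCA (a single arm of the estrogen response element) or TATAAA (the TATA box).
EMP1 (chr12:13349410-13349659, plus strand): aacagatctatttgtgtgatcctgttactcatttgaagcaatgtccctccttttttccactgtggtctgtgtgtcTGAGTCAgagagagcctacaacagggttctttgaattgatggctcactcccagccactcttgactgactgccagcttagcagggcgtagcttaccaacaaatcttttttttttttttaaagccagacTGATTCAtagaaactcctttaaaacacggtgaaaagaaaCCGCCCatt
CNN3 (chr1:95392667-95392916, minus strand): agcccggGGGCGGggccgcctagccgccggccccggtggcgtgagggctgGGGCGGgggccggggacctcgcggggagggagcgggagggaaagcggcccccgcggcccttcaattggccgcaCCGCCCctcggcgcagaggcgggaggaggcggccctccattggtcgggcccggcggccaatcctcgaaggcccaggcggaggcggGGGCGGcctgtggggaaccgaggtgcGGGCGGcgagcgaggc
TFPI2 (chr7:93520066-93520315, minus strand): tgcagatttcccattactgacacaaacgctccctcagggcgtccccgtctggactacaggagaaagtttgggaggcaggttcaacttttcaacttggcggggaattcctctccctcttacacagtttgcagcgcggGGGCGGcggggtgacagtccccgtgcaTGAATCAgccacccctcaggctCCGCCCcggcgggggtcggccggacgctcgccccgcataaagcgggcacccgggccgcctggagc
CXCL17 (chr19:42947099-42947348, minus strand): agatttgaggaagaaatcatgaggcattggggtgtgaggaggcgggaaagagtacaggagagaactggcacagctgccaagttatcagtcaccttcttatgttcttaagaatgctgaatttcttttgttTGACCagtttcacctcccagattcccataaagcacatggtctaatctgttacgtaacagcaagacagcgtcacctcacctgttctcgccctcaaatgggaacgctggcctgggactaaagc

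A GC box was present in 5 of the 6 promoters, all but CXCL17, and in 57.2% of all promoters of that length. CNN3 held 5 of them, TFPI2 and CLGN 2 each, and TM4SF1 and EMP1 1 each. The AP-1 motif was present at 2 places in the EMP1 promoter and at 1 in that of TFPI2, and in 5.0% of all promoters. The arm GGTCA was found in CXCL17 alone, against 30.6% of all promoters. The full palindromic estrogen response element, with both arms spaced by 3 bases, was in none of the 6 promoters and in 0.0149% of all. TATAAA was in none of the 6 and in 9.46% of all. A match is a description of the letters and does not show that a factor was bound.

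Fewer H3K4me1 peaks were listed around the 6 genes in both KD libraries than in both control libraries, a measure that was not used to choose the genes. Peaks were counted where the summit lay within 100 kb of the gene's start. At a false discovery rate (FDR) of 0.01, the 6 windows together had 191 and 238 H3K4me1 peaks in the control libraries and 22 and 85 in the KD libraries. Both KD libraries lay under both control libraries, with means of 214.5 ± 33.2 and 53.5 ± 44.5 (SD, n = 2 each) and a 2-sided exact permutation p of 0.333, which is the smallest that 2 libraries against 2 can give. All 6 genes had fewer peaks in both KD libraries, but so did 58.2% of all 20088 genes, and the KD libraries held fewer peaks at this FDR in all, 28599 and 109586 against 141158 and 192201 in the controls.

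Taking the same number of peaks from each library, the 50000 with the highest signal, removes that difference in list length. The 6 windows then held 85 and 88 peaks in the controls and 48 and 36 in the KD, with means of 86.5 ± 2.12 and 42.0 ± 8.49 (SD, n = 2 each) and again the smallest exact permutation p of 0.333. The median gene had 2 such peaks in every library. TM4SF1, EMP1, CNN3 and CLGN had fewer in both KD libraries, 4 of 6, where 11.6% of all genes did. These 4 held 8 to 38 such peaks in a control library. A gene with few control peaks can hardly be lower without overlap, and genes of similar control count were not compared. More peaks in both KD libraries was the case for 0 of the 6 and for 12.2% of all genes. With every listed peak, where the H3K4me1 lists are of nearly equal length, 5 of 6 genes had fewer in both KD libraries, all but EMP1, beside 31.3% of all genes. TM4SF1 contributed most to the top-ranked sums, and without it the sums were 47 and 63 in the controls and 38 and 21 in the KD.

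TM4SF1 had 38 and 25 of the top-ranked H3K4me1 peaks in the controls and 10 and 15 in the KD. The controls placed it at the 99.6th and 98.7th percentile of all genes, and the KD libraries at the 92.4th and 96.5th, so the locus stayed among the more heavily marked ones. EMP1 had 19 and 15 peaks in the controls and 11 and 11 in the KD, from the 97.1th and 95.6th to the 93.8th and 93.5th percentile. CNN3 had 8 and 16 peaks in the controls and 6 and 2 in the KD. CLGN had 10 and 15 peaks in the controls and 8 and 4 in the KD. For CNN3 and CLGN the nearest control and KD libraries differed by 2 peaks. TFPI2 had 7 and 13 peaks in the controls and 8 and 2 in the KD, and CXCL17 had 3 and 4 against 5 and 2, so these 2 overlapped.

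**Figure D3:**
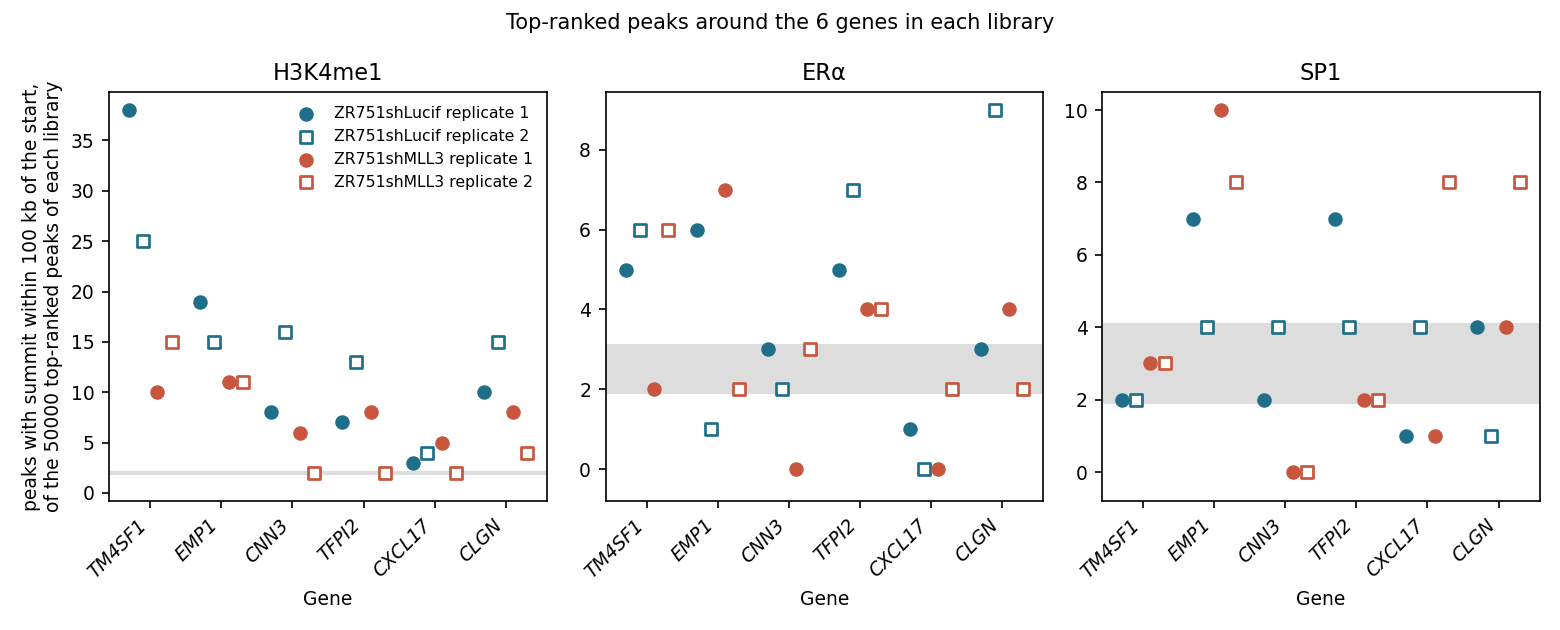
Number of peaks with a summit within 100 kb of the start of each gene (y axis), among the 50000 top-ranked peaks of each library, for H3K4me1 (left), ERα (middle) and SP1 (right), with blue for ZR751shLucif, red for ZR751shMLL3, filled circles for replicate 1 and open squares for replicate 2. The grey band spans the lowest to the highest library's median over all genes. H3K4me1 at TM4SF1 stands at 38 and 25 in the controls against 10 and 15 in the KD, whereas the ERα counts reach 9 at most and overlap for all genes but TFPI2. The SP1 counts reach 10 at most, with both red points above both blue points for TM4SF1 and EMP1 and below them for CNN3 and TFPI2.

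Individual regions were followed by taking the stretches covered by top-ranked H3K4me1 peaks of both control libraries, an overlap of at least 1 base. There were 34 of them within 100 kb of the 6 starts, 15 around TM4SF1, 7 around EMP1, 5 around CNN3, 4 around CLGN, 2 around TFPI2 and 1 around CXCL17. Of the 34, 19 overlapped no top-ranked peak of either KD library (55.9%), 12 overlapped one of 1 KD library and 3 of both, and over the genome 34.5% of 16546 such regions overlapped none. Without TM4SF1 the share was 47.4%, 9 of 19. Regions of 1 locus share their surroundings and are not independent, so this difference carries no test. Seen from the other side, 14 regions were held by both KD libraries around the 6 genes, of which 5 overlapped no top-ranked control peak (35.7%), beside 34.6% of 13060 such regions over the genome. Of the 34 control regions, 17 lay outside any protein-coding gene.

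The TM4SF1 regions formed a group upstream of the gene. At −10727, −19236, −23175, −24865 and −26298 bp from the start, all outside protein-coding genes, both control libraries held a top-ranked peak and neither KD library did. Of these, the regions at −10727 and −26298 bp overlapped no listed KD peak at any rank. The stretch was not empty of H3K4me1 in the KD, however. The best-ranked peak of the whole TM4SF1 window lay in it in both KD libraries. It was at −10230 bp and rank 3078 in ZR751shMLL3 replicate 1 and at −17901 bp and rank 1511 in replicate 2. The peak of replicate 1, at chr3:149105378-149105953, ended just short of the region at −10727 bp. That region, chr3:149106016-149106311, is only the 296 bp that top-ranked peaks of both control libraries cover. The region at −23175 bp held peak 524 of ZR751shLucif replicate 2 and peak 17831 of replicate 1, against ranks 170382 and 281634 in the KD. Between them, the region at −16363 bp was kept by ZR751shMLL3 replicate 1 at rank 45284. Within the gene, a stretch of 147 bp over an exon at 5935 bp from the start also had no listed KD peak. A region at 99002 bp downstream was held by all 4 libraries.

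At EMP1, 2 of the 7 regions, at 26821 and 45792 bp downstream of its start, were held by all 4 libraries, with ranks of 3936 and 2538 in the controls and 2432 and 244 in the KD for the nearer one. The region next to the promoter, at −496 bp, was top-ranked in the controls at 39528 and 41283 and ranked just past the limit in the KD, at 53325 and 54166. For CLGN, the region at −731 bp next to the promoter held ranks 11349 and 4786 in the controls and 27441 in ZR751shMLL3 replicate 1, and no listed peak of replicate 2 overlapped it. For CNN3, none of the 5 regions was near the start, and those at −85985 and −88000 bp, in introns of ALG14, overlapped no listed KD peak. The 2 TFPI2 regions, both in introns of GNGT1, and the 1 CXCL17 region were each kept by 1 KD library.

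**Figure D4:**
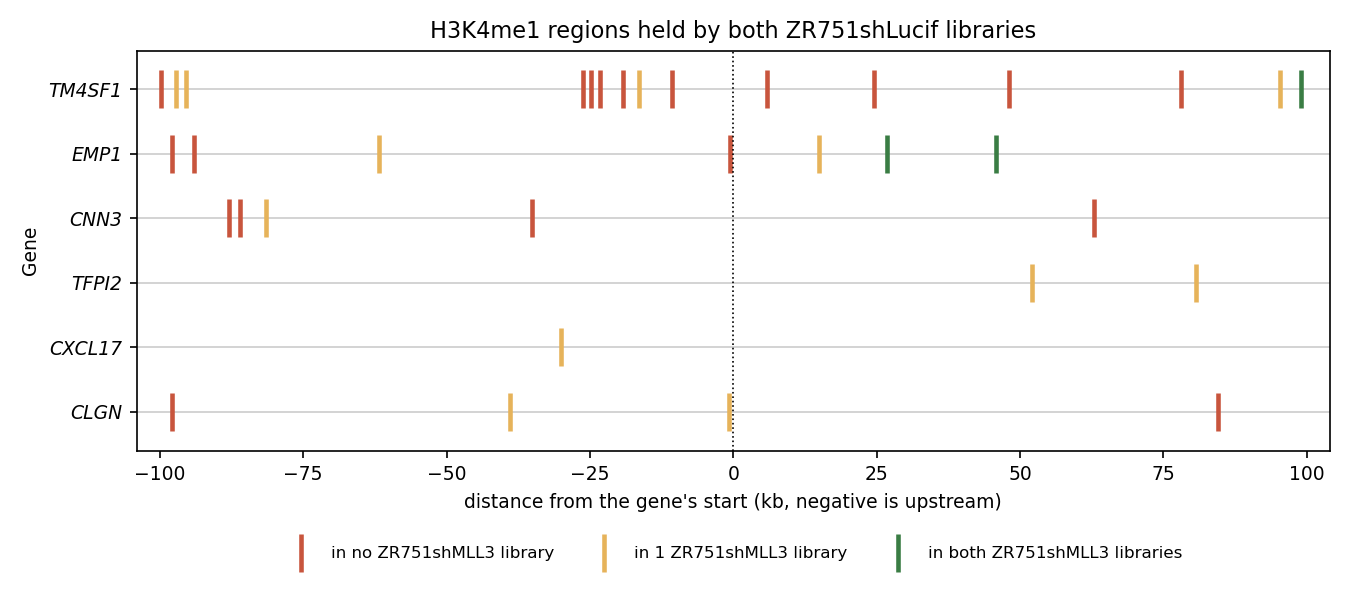
Position of each H3K4me1 region held by top-ranked peaks of both ZR751shLucif libraries, as distance from the gene's start in kb (x axis, negative is upstream), in a row for each of the 6 genes (y axis). Red regions overlap no top-ranked peak of either ZR751shMLL3 library, yellow regions of 1 and green regions of both. Of the 15 TM4SF1 regions 10 are red, including the group upstream of the start, whereas EMP1 holds 2 of the 3 green regions.

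The middle 300 bases of 3 of these regions are shown, 5′ to 3′ on the plus strand of GRCh37. They lie close upstream of the TM4SF1 and EMP1 starts, had no top-ranked KD peak and hold a forkhead motif or GGTCA. Capitals mark GTAAACA (the forkhead motif) or GGTCA on either strand.
TM4SF1 region at −10727 bp (chr3:149106013-149106312): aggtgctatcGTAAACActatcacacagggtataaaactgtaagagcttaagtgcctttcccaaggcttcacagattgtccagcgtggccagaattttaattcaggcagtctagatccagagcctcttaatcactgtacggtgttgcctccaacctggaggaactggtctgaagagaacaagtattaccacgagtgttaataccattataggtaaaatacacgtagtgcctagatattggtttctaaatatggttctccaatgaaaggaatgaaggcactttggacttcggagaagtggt
TM4SF1 region at −19236 bp (chr3:149114522-149114821): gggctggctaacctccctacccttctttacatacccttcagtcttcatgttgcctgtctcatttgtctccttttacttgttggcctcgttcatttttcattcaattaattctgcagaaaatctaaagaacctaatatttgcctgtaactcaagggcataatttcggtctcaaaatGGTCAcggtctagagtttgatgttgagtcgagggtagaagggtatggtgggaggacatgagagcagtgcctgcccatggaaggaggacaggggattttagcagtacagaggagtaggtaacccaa
EMP1 region at −496 bp (chr12:13349014-13349313): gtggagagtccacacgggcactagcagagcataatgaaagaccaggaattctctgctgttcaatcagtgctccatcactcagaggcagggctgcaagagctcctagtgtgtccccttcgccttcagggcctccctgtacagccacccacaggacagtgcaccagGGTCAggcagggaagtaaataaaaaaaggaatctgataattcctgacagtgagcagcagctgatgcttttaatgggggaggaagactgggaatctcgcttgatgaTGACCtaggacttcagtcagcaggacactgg

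GGTCA was in 13 of the 34 regions around the 6 genes (38.2%) and in 34.6% of the 16546 regions of the genome, over windows of the same length. The forkhead motif was in 4 (11.8%) and in 9.27%, and the AP-1 motif in 1 (2.94%) and in 11.9%. TATAAA, which is not marked in the regions above, was in 15 (44.1%) and in 34.2%. The full estrogen response element and the GC box were in none of the 34, and in 0.0302% and 1.68% of the genome's regions. The median GC content was 36.7% around the 6 genes and 37.3% over the genome's regions. These shares carry no test.

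Top-ranked ERα peaks were present near the 6 genes, but none was shared between the libraries of a cell line. Over the genome, 98579 and 3797 ERα peaks passed an FDR of 0.01 in the controls and 764 and 31912 in the KD. The top-ranked sets of ZR751shLucif replicate 2 and of both KD libraries thus held many peaks that failed it. Among the 50000 top-ranked peaks, the 6 windows held 23 and 25 ERα peaks in the controls and 17 and 19 in the KD, with means of 24.0 ± 1.41 and 18.0 ± 1.41 (SD, n = 2 each) and an exact permutation p of 0.333, the smallest possible. By gene, only TFPI2 was lower in both KD libraries, at 5 and 7 peaks against 4 and 4, where 10.1% of all genes were. TM4SF1 had 5 and 6 against 2 and 6, EMP1 6 and 1 against 7 and 2, and CLGN 3 and 9 against 4 and 2. ZR751shLucif replicate 2 of ERα has a library identifier with another prefix than the other 3, and what the prefix stands for is not given. Without that library the sums were 23 in the control and 17 and 19 in the KD. At an FDR of 0.01 the windows held 42 and 2 peaks in the controls and 0 and 11 in the KD, with an exact permutation p of 0.667.

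No stretch within 100 kb of any of the 6 starts was covered by top-ranked ERα peaks of both libraries of a cell line, which was also the case for 92.0% of all genes in ZR751shLucif and 91.7% in ZR751shMLL3. The genome held 1539 such stretches for ZR751shLucif and 1701 for ZR751shMLL3. The strongest ERα peak near any of the 6 was at 79277 bp downstream of the TFPI2 start in ZR751shLucif replicate 2, at rank 359 and an FDR of 0.000634. The best ERα peak near TFPI2 in ZR751shLucif replicate 1 was elsewhere, at 74424 bp and rank 3246. Within 1 kb of a start, no top-ranked ERα peak was found for any of the 6 genes in any library, against 2.49% to 3.65% of all genes.

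SP1 gave no uniform difference at the 6 genes. At an FDR of 0.01, both control lists held 0 peaks over the whole genome, so a gene with a peak in both KD libraries counts as higher. This was so for TM4SF1, EMP1, CXCL17 and CLGN, 4 of 6, and for 65.6% of all genes. Among the 50000 top-ranked peaks, the 6 windows held 23 and 19 SP1 peaks in the controls and 20 and 29 in the KD, with means of 21.0 ± 2.83 and 24.5 ± 6.36 (SD, n = 2 each) and an exact permutation p of 0.667. TM4SF1, at 2 and 2 against 3 and 3 peaks, and EMP1, at 7 and 4 against 10 and 8, were higher in both KD libraries, where 15.7% of all genes were. CNN3, at 2 and 4 against 0 and 0, and TFPI2, at 7 and 4 against 2 and 2, were lower, where 5.92% were. For CNN3, no top-ranked SP1 peak lay within 100 kb in either KD library. At an FDR of 0.01 these 2 genes went the other way. ZR751shMLL3 replicate 1 held 10 SP1 peaks near CNN3 and 13 near TFPI2, and replicate 2 and both controls held 0. In ZR751shMLL3 replicate 1, 204178 of the 209985 listed SP1 peaks passed that FDR.

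ZR751shMLL3 replicate 2 of SP1 was unlike the other lists in its share of promoters, with a top-ranked peak within 1 kb of the start of 38.0% of all genes, against 5.76% to 7.15% in the other 3. In that library TFPI2 was the one gene of the 6 with a top-ranked SP1 peak at its promoter, at rank 18241, and the other 3 SP1 libraries had none for any of the 6. The part of this library in the SP1 counts was not tested.

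The hairpin against MLL3 is shown for its relation to the 6 transcripts. Its target is a 21-base stretch in coding exon 55 of KMT2C, at chr7:151841880-151841900 on the minus strand, and the antisense strand is given with bases 2 to 8, the seed, in capitals.
target: cgcaccttatagtaaacagtt
antisense strand: aACTGTTTactataaggtgcg
Of the 10536 transcripts of tested genes with a sequence, KMT2C alone held the whole target. AAACAGT, the complement of the seed, occurred in the transcript of 1 of the 6 genes, CLGN, and in 28.4% of these transcripts. The other 5 transcripts did not hold it. Only 1 transcript per gene was searched, so other isoforms, and a seed that starts at another base, were not covered.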

How the data were processed

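RNA-seq (stranded total RNA) and ChIP-seq were performed by the authors in ZR751shMLL3 and ZR751shLucif cells. The deposited expression values are FPKM per RefSeq gene, made by the authors with TopHat2 2.0.13, Cufflinks 2.2.1 and Cuffnorm 2.2.1 on hg19. The deposited peak lists give SPP signal and the −log10 of the FDR for each peak, called per library against the input of the cell line after BWA alignment (0.7.5a-r405) and duplicate removal. The lists are relaxed and limited by rank to about 300000 peaks. How many reads lie behind a given gene or peak is unknown. The authors' pooled peak sets and the input reads were not used here.

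RefSeq IDs were matched to symbols through the RefSeq gene table (22447 of 23501 rows gave 1 symbol), and symbols to GENCODE v44 on GRCh37 for 20088 genes with a start. Values of log2(FPKM + 0.5) were fitted with limma 3.58.1 (R 4.3.3) for genes whose mean exceeded 1, p-values were adjusted by Benjamini-Hochberg over all of them, and 0.05 was the threshold. This departs from the study's model, which removed surrogate variables, since 2 libraries against 2 leave little residual variation to estimate them. Regions were intersected with bedtools 2.31.1 and sequences read with pysam 0.24.0. The limma fit and the window counter were tested on simulated data. The labels call the libraries replicates and p-values measure the spread between them. Replicate numbers were not taken as pairs.

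The 6 genes, the lists of families and markers, and the tests were chosen with earlier results of these data known. Genes named were the 6, KMT2C, the largest difference each way in each list among genes that passed the filter, neighbours within 100 kb with a mean of at least 1 FPKM, and the 5 closest profiles. SNORD104, MUCL1, MGP and BPIFB1 were named after their values were seen. Alternatives were the pseudocount, filter, scaling, GC trend, replicate block, 1 surrogate variable, leaving out each library, the number of ranked peaks and the window.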

Additional observations from a re-analysis of the deposited data

How the results depend on the processing

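The differences of the 6 genes stayed below 0 under every alternative run, with the median between −2.66 and −2.13. The choice of the genes on these same libraries made that sign all but certain. With a pseudocount of 1 the median was −2.26, EMP1 −1.74, CNN3 −1.89, TFPI2 −2.42 and CXCL17 −2.31, and with 0.1 the median was −2.66, EMP1 −2.60, TFPI2 −2.77 and CXCL17 −3.47. Quantile normalization gave EMP1 −2.37 and CNN3 −1.89. Removal of the GC trend gave a median of −2.13, EMP1 −1.91, CNN3 −1.76, TFPI2 −2.29 and CLGN −1.96, and −0.26 for the calponin list. Median-ratio scaling, added after seeing the data, gave a median of −2.35 and CNN3 −1.87. Leaving out 1 library gave medians of −2.39 to −2.32. The count of genes called depended on the fit. It was 0 lower without the filter and 0 lower with the GC trend removed. With the replicate block it was 19 lower and 14 higher, and the deviations of same-numbered libraries correlated at 0.0374, so the numbers are not taken as pairs. With 1 surrogate variable removed it was 1013 lower and 669 higher of 11134 genes tested. Of the 28 family and partner genes tested, 5 were called in that fit. That fit subtracted the first principal component of the residuals within the cell lines. It then used ordinary t-tests without counting the degree of freedom spent, which inflates these counts. Leaving out a library gave 1 to 916 lower and 0 to 353 higher, the upper counts without ZR751shLucif replicate 2, and 0 to 2 family genes. In these fits the lone library was assumed to vary like those of the other cell line. The median of the chaperone list ranged from −0.21 to 0.16, the latter without ZR751shLucif replicate 1. The causes were not tested.

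The H3K4me1 difference summed over the 6 genes stayed negative in every alternative run. All 6 genes had fewer H3K4me1 peaks in both KD libraries with the window of 250 kb (72.4% of all genes), and 5 with the window of 50 kb, all but CNN3 (46.5%). The ERα sum turned from −16.5 to 27.0 with every listed peak, where ZR751shLucif replicate 1 lists 156481 peaks and the other 3 at least 299403. At the length of the shortest list it was −4.5. It ranged from −36.5 to 3.5 when 1 library was left out, positive without ZR751shLucif replicate 1. The SP1 sum turned from 52.5 to −7.0 with every listed peak, where ZR751shMLL3 replicate 1 lists 209985 peaks and the other 3 list 300000. At the shortest length it was 13, still positive. Of the 6 genes, 1 had fewer ERα peaks in both KD libraries among the 50000 top-ranked, TFPI2 (10.1% of all genes). At the length of the shortest list, added after seeing the data, 1 did, CLGN (13.1%). When 1 library was left out, the count depended on which. Without ZR751shLucif replicate 2, the only control was replicate 1. It had 98579 ERα peaks passing the FDR limit over the genome, against 764 and 31912 in the KD libraries. The share of all genes was not computed for these settings, so their counts are not compared. With every listed peak, 2 of the 6 genes had more ERα peaks in both KD libraries (27.1% of all genes). For SP1, 2 had fewer among the 50000 top-ranked, 1 with every listed peak (15.5% of all genes) and 1 at the shortest length (7.59%). More SP1 peaks were found at 2 genes among the 50000 top-ranked, 0 with every listed peak (2.84% of all genes), 2 in a window of 50 kb (51.4%) and 3 at the shortest length (17.1%). Of 162 comparisons of a single gene's peak difference with its alternatives, 52 moved by more than 1 SD.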
